A study of Mus musculus with 4 samples.

Results

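The genes described here are those whose mouse symbol begins with Ttc or Wdr and a digit, the names given to proteins with a tetratricopeptide repeat or a WD repeat when nothing else was known of them. The deposited table held 87 such symbols, and 4 of them (Ttc8, Ttc21b, Wdr19 and Wdr35) were set aside because they belong to defined ciliary complexes. This left 83 genes of 18471, 30 named Ttc and 53 named Wdr, and all 83 passed the filter on low counts. The rule reads names and no measured value, but it was set with earlier results of these data known. The name does not guarantee the repeat: Ttc39aos1 and Wdr83os carry the symbol of a neighbour on the opposite strand, and Wdr83os encodes a small membrane protein of the endoplasmic reticulum.

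Expression was measured by RNA sequencing in mouse retina at embryonic day 19. The wild-type group had 2 libraries, and the Foxn3KO group had 2 libraries from embryos of genotype Foxn3-/-, which lack exon 3 of the forkhead factor gene Foxn3 through the allele C57BL/6NJ-Foxn3em1(IMPC)Bay/Mmnc. The strain of the wild-type embryos was not given separately. Each library came from the retina of 1 genotyped embryo, the deletion is carried by every cell of the embryo, and the labels name no treatment. The study asks how Foxn3 takes part in the control of primary cilia.

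Tetratricopeptide repeats are pairs of short helices that stack into a curved scaffold, and WD repeats form the blades of a propeller. Neither fold is an enzyme. Both hold other proteins together, and for this reason they recur in large assemblies: the trains that carry cargo along cilia, dynein arms, centrioles, ribosome precursors, histone methyltransferases, ubiquitin ligases and regulators of lysosomes. A primary cilium is the single sensory projection of most cells, built on a microtubule axoneme. In motile cilia and sperm tails the axoneme carries dynein arms as well. In the retina the outer segment of a photoreceptor grows from a modified primary cilium.

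Total counts ranged from 22543531 to 29360129 per library. Foxn3 itself had 2421 and 2712 counts under the wild-type label and 4181 and 3219 under the Foxn3KO label. Counts per gene do not resolve exon 3, so this neither shows nor excludes the deletion, and every direction below rests on the labels. Wild-type replicate 1 stood apart by sex, with 83073 counts of Xist against 9 to 19 in the other libraries and 0 counts of Ddx3y. The labelled tissue matched its markers. The sum of 5 progenitor markers was 1973 to 2062 CPM (the count scaled to the TMM-adjusted size of its library). That of 5 photoreceptor precursor markers was 1319 to 1355 CPM, that of 5 ganglion cell markers 589 to 629 CPM and that of 5 amacrine and horizontal markers 419 to 451 CPM. Single genes in these lists were called both ways: Sox2 (progenitor) and Nrl (photoreceptor precursor) higher, Hes1 (progenitor), Isl1 (ganglion cell) and Onecut1 (amacrine and horizontal) lower. Markers of lens differed between the labels and also between the libraries labelled wild-type. Whether lens tissue was taken along with the retina was not tested. The 6 lens genes, all called higher, summed to 4.72 and 57.6 CPM under the wild-type label and to 239 and 237 CPM under the Foxn3KO label, with none at 0 counts in any library. The 5 pigment epithelium genes in the table summed to 46.5 and 69.7 against 36.5 and 37.7 CPM. The 5 choroid plexus genes summed to 8.75 and 11.9 against 9.27 and 9.64 CPM, but their members went both ways: Folr1 was called higher, and Clic6 and Ttr were called lower. Microglia markers summed to 18.5 and 19.2 against 22.6 and 23.4 CPM. In whole retina, a change in the number of cells of a type and a change of RNA per cell cannot be told apart, and the part of such cells in the results below was not tested.

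Of the 83 genes, 25 (30.1%) had an adjusted p under 0.05 in edgeR's quasi-likelihood test with Benjamini-Hochberg adjustment over all genes tested, and such genes are named as called here. The share over all 17300 genes tested was 21.9%. The calls were mostly rises. Under the Foxn3KO label 20 members (24.1%) were called higher, where 12.3% of all genes were, and 5 (6.02%) were called lower, where 9.66% of all genes were. The typical member moved little: the median log2 fold change was 0.05, and over the whole table it was -0.0047, and 44 of 83 were within 10% of no change. DESeq2 called 18 of them, 15 higher and 3 lower, at a background of 16.0%. With 1 library left out, the number of calls went up or down with the library, and the share over all genes in those fits is not given here. The median log2 fold change in those fits ran from 0.0442 to 0.0742 for the members and from -0.00614 to 0.000887 for all genes.

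**Figure D1:**
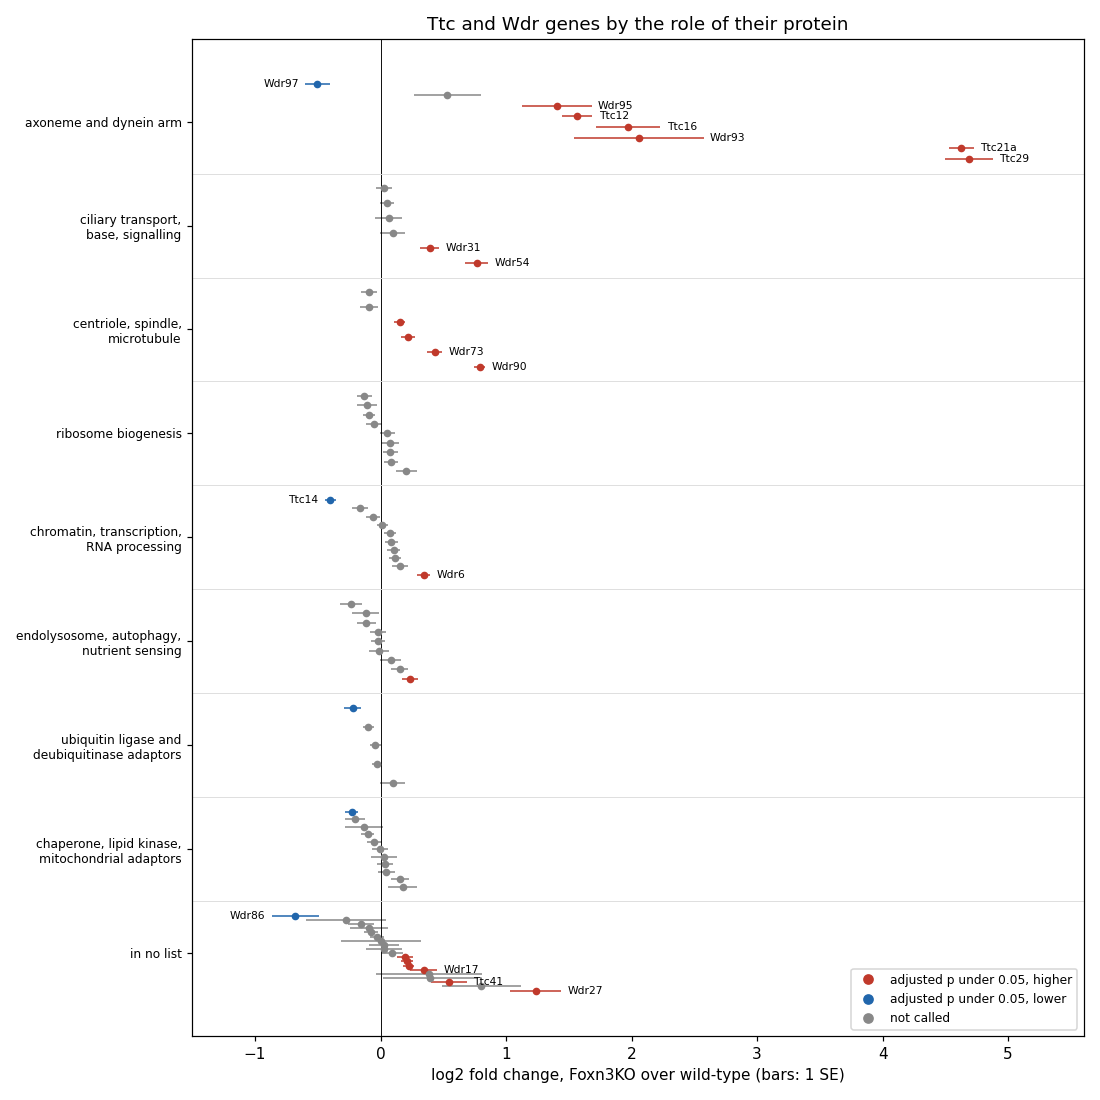
Log2 fold change (Foxn3KO over wild-type, with bars of 1 SE) of the 83 genes, arranged by the role of their protein and coloured by the edgeR call. The axoneme and dynein arm genes reach 4.69, while the genes of ribosome biogenesis lie between -0.13 and 0.21.

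The 6 largest changes among the 83 genes were in genes listed for the axoneme, all of them rises. The list of axoneme and dynein arm genes held 12 names, of which 8 were in the table. Of these, 6 were called higher, 1 (Wdr97) was called lower and 1 (Wdr38) was not called. Among the 6, Wdr93 passed the filter on low counts only through the Foxn3KO libraries. Over all genes 12.3% were called higher and 9.66% lower. The median log2 fold change of the 8 was 1.77. The placing of Ttc16, Wdr38, Wdr93, Wdr95 and Wdr97 in this list is less sure than that of the others, and no role is given for them here. The lists were drawn up with earlier results on other cilia genes of these data known, so this count is not independent evidence of a direction.

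Ttc29, an axonemal protein that sperm tails need, had 12 and 29 counts under the wild-type label and 576 and 473 under the Foxn3KO label. Its level went from 0.776 ± 0.413 to 20.5 ± 0.947 CPM (SD, n = 2 each), which is 4.69 on the log2 scale (SE 0.191, edgeR adjusted p = 2.5e-12). The wild-type libraries differed by a ratio of 2.21, so the fold depends on which is used: with wild-type replicate 2 left out it was 5.38 on the log2 scale, and 4.25 without wild-type replicate 1. Even the higher of these libraries lay far below both Foxn3KO libraries.

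Ttc21a, the close relative of the intraflagellar transport subunit Ttc21b and itself needed in sperm tails, had 49 and 65 counts against 1602 and 1196. This was 2.18 ± 0.294 against 54.2 ± 1.14 CPM (SD, n = 2 each), which is 4.63 on the log2 scale (SE 0.0982, edgeR adjusted p = 2.68e-16). The paralog behaved otherwise. Ttc21b, set aside by the choice of names, had 805 and 824 counts against 951 and 692, or 0.02 on the log2 scale (edgeR adjusted p = 0.889). The difference between the paralogs was not tested. Ttc21a shares its locus with Cx3cr1 on the opposite strand, a microglial receptor gene that was at 3.96 CPM under the wild-type label and 4.63 CPM under the Foxn3KO label (edgeR adjusted p = 0.444).

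Ttc12, which is needed to assemble dynein arms, had 195 and 169 counts under the wild-type label and 565 and 500 under the Foxn3KO label. Its wild-type level was higher than those of Ttc29 and Ttc21a, at 7.04 ± 1.16 CPM, and it reached 20.9 ± 2.07 CPM (SD, n = 2 each). On the log2 scale it changed by 1.57 (SE 0.12, edgeR adjusted p = 1.83e-08). Ttc16 had 25 and 23 counts against 99 and 88, which is 1.97 on the log2 scale (SE 0.256, edgeR adjusted p = 1.76e-05). The groups did not overlap for either gene.

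Wdr95 had 24 counts in each library labelled wild-type and 68 and 58 under the Foxn3KO label, which is 1.40 on the log2 scale (SE 0.279, edgeR adjusted p = 0.00133). Wdr93 was the least abundant of the called genes, with 7 and 5 counts against 22 and 28. Its log2 fold change was 2.06 (SE 0.518, edgeR adjusted p = 0.00806). It passed the filter on low counts only through the Foxn3KO libraries, so its rise is not independent evidence of a direction. Its call was lost without Foxn3KO replicate 2 (edgeR adjusted p = 0.0803), and DESeq2 gave it no adjusted p. For Wdr38 the counts were 44 and 34 against 64 and 48, and the log2 fold change of 0.53 was not called (edgeR adjusted p = 0.175). Lens markers were also higher under the Foxn3KO label, and their sum differed between the wild-type-labelled libraries, at 4.72 and 57.6 CPM, where Ttc29 had 0.484 and 1.07 CPM, Ttc21a had 1.98 and 2.39 CPM and Ttc12 had 7.86 and 6.22 CPM. The part of lens RNA in these rises was not tested.

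**Figure D2:**
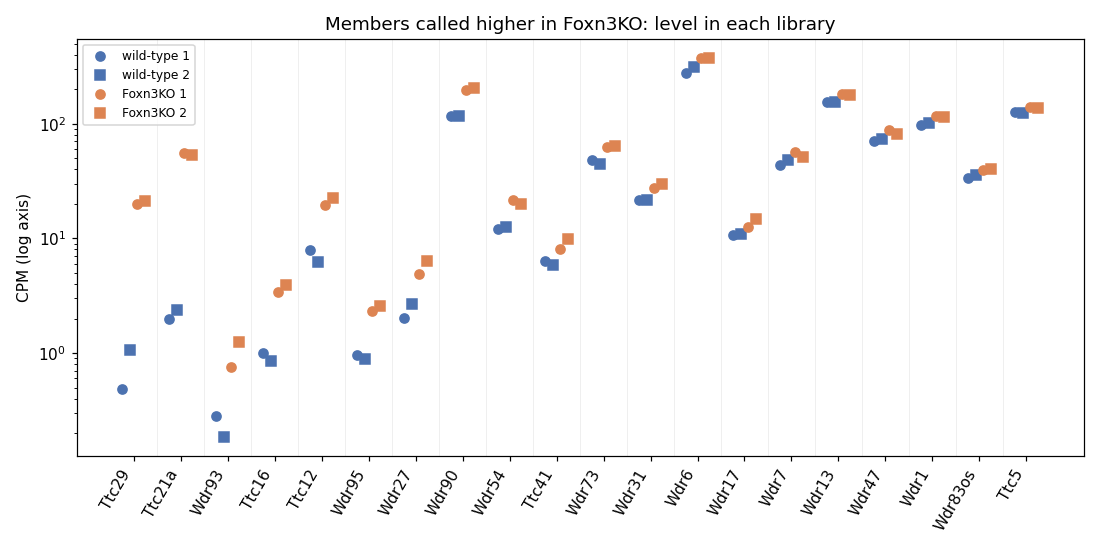
CPM (log axis) of the 20 genes called higher, in each of the 4 libraries, ordered by fold change. The gap between the groups is widest for Ttc29 and Ttc21a, and for Ttc5, at 127 and 123 against 141 and 137 CPM, it is barely visible on this axis.

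The sequences before the start of the 4 genes with the largest rises and a mean of at least 1 CPM are printed to show the letters that could be read there by factors of cilia genes. RFX factors, which drive cilia genes, bind the X-box, and forkhead factors of the FOXN group can bind a short alternative to the usual forkhead motif. Each line gives the 250 bases before the RefSeq start (GRCm38.p6), 5′ to 3′ on the strand of the gene. These lines hold reference sequence, not reads of these embryos. Capitals mark the X-box arm GTTNCC and the FHL motif GACGC, each on either strand.
Ttc29 (chr8:78213092-78213341, plus strand): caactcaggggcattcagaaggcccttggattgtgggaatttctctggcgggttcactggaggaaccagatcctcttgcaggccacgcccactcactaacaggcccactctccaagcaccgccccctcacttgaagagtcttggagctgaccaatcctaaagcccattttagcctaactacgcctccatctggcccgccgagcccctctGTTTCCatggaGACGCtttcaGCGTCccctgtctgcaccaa
Ttc21a (chr9:119937356-119937605, plus strand): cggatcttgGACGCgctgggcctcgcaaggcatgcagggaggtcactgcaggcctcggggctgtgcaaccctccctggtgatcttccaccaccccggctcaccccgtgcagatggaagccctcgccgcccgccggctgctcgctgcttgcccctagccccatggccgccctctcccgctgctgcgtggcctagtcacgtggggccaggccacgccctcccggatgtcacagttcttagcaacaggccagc
Ttc16 (chr2:32775634-32775883, minus strand): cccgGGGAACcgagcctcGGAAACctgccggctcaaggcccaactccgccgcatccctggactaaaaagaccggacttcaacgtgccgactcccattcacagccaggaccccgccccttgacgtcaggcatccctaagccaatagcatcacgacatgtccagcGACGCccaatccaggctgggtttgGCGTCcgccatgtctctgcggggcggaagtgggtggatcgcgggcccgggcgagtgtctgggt
Ttc12 (chr9:49486226-49486475, minus strand): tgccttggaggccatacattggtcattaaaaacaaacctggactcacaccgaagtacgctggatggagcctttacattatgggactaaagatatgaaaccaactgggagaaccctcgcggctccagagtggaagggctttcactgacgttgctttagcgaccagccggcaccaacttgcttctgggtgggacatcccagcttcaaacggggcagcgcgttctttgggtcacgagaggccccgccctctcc

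The 4 promoters did not share a motif. That of Ttc29 held 1 X-box arm and 2 FHL motifs within 41 bases of the start, that of Ttc16 held 2 of each at the start used here, that of Ttc21a held 1 FHL motif 241 bases before the start, and that of Ttc12 held neither. A promoter was listed for 69 of the 83 genes. The X-box arm was found in 10 of 18 promoters of members called higher (55.6%), in 23 of 48 of members not called (47.9%) and in 45.4% of the promoters of all tested genes. FHL was found in 9 of 18 (50%), 21 of 48 (43.8%) and 42.0%. Neither the full X-box (GTTNCC, any 2 bases, GGNAAC) nor the forkhead motif GTAAACA, on either strand, was found in any of the 69, where 0.551% and 2.68% of all tested genes held them. With 1 mismatch allowed at the fixed letters of the full X-box, a search added after the matches had been seen, 3 of the 69 held it and all 3 were called higher: Ttc29, Wdr54 and Wdr47. The share over all tested genes was 3.07%. These 3 sites are printed with the fixed positions of the motif in capitals.
Ttc29, 41 to 28 bases before the start: GTTtCCatGGaGAC
Wdr47, 90 to 77 bases before the start: GTTgCCatGGtCAC
Wdr54, 110 to 97 bases before the start: GTCtCCtcGGcAAC
A match describes the letters only, and no binding was measured.

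Among the 83 genes, those listed for ciliary transport, the ciliary base and ciliary signalling had smaller changes than those listed for the axoneme. This difference was not tested. By the choice of names, the list does not stand for ciliary transport as a whole. Outside the 83 genes, Ift56, Ift70a1, Ift70b, Ift88, Ift122, Dync2i1, Dync2i2, Wdr19, Wdr35 and Ttc8 were called higher, and Ttc21b was not called. They are among the 26 genes compared further below, whose median log2 fold change was 1.17. Of 10 names on the list for ciliary transport, base and signalling, 6 were in the table. Of these, 2 were called higher (33.3%) and 4 were not called. Over all genes tested, 12.3% were called higher and 9.66% lower. The median log2 fold change of the 6 was 0.08. Wdr54, whose placing here is less sure, had 300 and 339 counts against 629 and 451, which is 12.3 ± 0.268 against 20.9 ± 1.03 CPM (SD, n = 2 each). On the log2 scale it changed by 0.77 (SE 0.0912, edgeR adjusted p = 6.41e-06). Wdr31, which takes part in trafficking of ciliary proteins, had 540 and 589 counts against 794 and 667, which is 0.39 on the log2 scale (SE 0.077, edgeR adjusted p = 0.00121). Both genes were separated between the groups in all libraries. Wdr54 overlaps Rtkn on the opposite strand, whose log2 fold change was -0.21 (edgeR adjusted p = 0.171).

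The other 4 were close to no change. Wdr11, a trafficking protein linked to Hedgehog signalling, had 65.4 and 71.6 CPM against 71.5 and 70.3 CPM (log2 fold change 0.05, edgeR adjusted p = 0.578). Ttc17, an actin-related factor of ciliogenesis, had 39.7 and 37.6 CPM against 39.2 and 39.5 CPM (0.03, edgeR adjusted p = 0.818). Ttc23, a protein of the ciliary base, had a log2 fold change of 0.10 (edgeR adjusted p = 0.54) and Wdr5b, whose placing here is less sure, one of 0.07 (edgeR adjusted p = 0.718). The groups overlapped for Wdr11, Ttc17 and Wdr5b, and the sign of each of these 3 turned when 1 wild-type library was left out.

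Of 6 centriole, spindle and microtubule genes, 4 (66.7%) were called higher and 2 were not called, with a median log2 fold change of 0.18. Of all genes tested, 12.3% were called higher, and of all genes at 50 CPM or more 17.2% were. Wdr90, a protein of the centriole wall, was the most abundant gene with a rise of more than 1.5-fold: it had 2879 and 3172 counts against 5739 and 4607. Its level went from 116 ± 0.461 to 201 ± 6.1 CPM (SD, n = 2 each), which is 0.79 on the log2 scale (SE 0.0451, edgeR adjusted p = 3.08e-10). Wdr73, a protein of spindle microtubules, had 48.6 and 44.5 CPM against 62.3 and 63.4 CPM, or in log2 terms 0.43 (edgeR adjusted p = 3.47e-05). Wdr47, a microtubule protein of neurons, had 0.22 (edgeR adjusted p = 0.00844), and Ttc5, which destabilises tubulin messages when free tubulin is abundant, had 0.15 (edgeR adjusted p = 0.0246). The last 2 calls were lost without Foxn3KO replicate 1 (edgeR adjusted p = 0.232 and 0.286), which left 2 of 6 called; Ttc5 was also lost without Foxn3KO replicate 2 (0.131) and in DESeq2 (0.0623). Wdr62, a spindle pole protein of dividing progenitors, and Ttc28 were not called, with log2 fold changes of -0.09 each.

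Ttc28 differed between the wild-type-labelled libraries, with 139 and 164 CPM. Its groups overlapped, at 136 and 148 CPM under the Foxn3KO label. Without wild-type replicate 1 its log2 fold change was -0.21 and passed (edgeR adjusted p = 5.34e-06), where the lone wild-type library is assumed to vary like the other group. With both wild-type libraries the edgeR adjusted p was 0.329.

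None of the 9 genes of ribosome biogenesis was called by edgeR, DESeq2 or limma-voom, and 2 had an unadjusted p under 0.05 in edgeR. By edgeR 21.9% of all genes were called. Their log2 fold changes ran from -0.13 (Wdr12, of the complex that matures the large subunit) to 0.21 (Wdr46, of the small subunit processome), with a median of 0.05. Wdr46 had 24.9 and 29.7 CPM against 31 and 32.1 CPM (edgeR adjusted p = 0.0834); with wild-type replicate 2 left out it passed (edgeR adjusted p = 0.000625), as Wdr43 did (0.0496), and Wdr3 passed without wild-type replicate 1 (0.0363).

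In the list of chromatin, transcription and RNA processing, 1 of 10 tested genes was called higher and 1 lower, a share of 20% where 21.9% of all genes were called. Wdr6, the partner of an enzyme that methylates transfer RNA, had 6814 and 8526 counts against 10841 and 8408. This was 294 ± 27.6 against 374 ± 2.22 CPM (SD, n = 2 each), which is 0.35 on the log2 scale (SE 0.0519, edgeR adjusted p = 9.08e-05). The wild-type libraries, at 275 and 314 CPM, were further apart than the Foxn3KO libraries, at 372 and 375 CPM, and both lay below them. Wdr6 shares 464 bases with Dalrd3 on the opposite strand, which rose by 0.84 on the log2 scale from 65.4 to 117 CPM (edgeR adjusted p = 9.87e-10). Wdr5, the shared subunit of histone H3 methyltransferases, had a log2 fold change of 0.11 (edgeR adjusted p = 0.109) and Wdr82, of the SET1 enzymes, had 0.01 (edgeR adjusted p = 0.88).

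Of 9 genes of endolysosomes, autophagy and nutrient sensing, 1 was called (11.1%), where 21.9% of all genes were. Wdr7, which belongs to the regulator of the vesicular proton pump, had 43.9 and 48.1 CPM against 56.5 and 51.6 CPM, or in log2 terms 0.23 (edgeR adjusted p = 0.0151). This call was lost without Foxn3KO replicate 1 (edgeR adjusted p = 0.245) and in DESeq2 (0.055). Wdr24 and Wdr59 are subunits of the same complex, GATOR2, which relays amino acid supply. Wdr24 had a log2 fold change of -0.02 (edgeR adjusted p = 0.843) and Wdr59 one of -0.24 (edgeR adjusted p = 0.0577). Wdr59 had 20.3 and 21 CPM against 16.8 and 18.3 CPM and passed without wild-type replicate 1 (edgeR adjusted p = 0.0353).

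The 5 called falls lay between -0.68 and -0.22 on the log2 scale. They are given in order of size. Wdr86 had 110 and 113 counts under the wild-type label and 77 and 61 under the Foxn3KO label, which is -0.68 on the log2 scale (SE 0.189, edgeR adjusted p = 0.0151). It was not called by DESeq2 (adjusted p = 0.0974) or without Foxn3KO replicate 1 (edgeR adjusted p = 0.0815). Wdr97 had 447 and 443 counts against 353 and 270, which is 17.2 ± 1.22 against 12.1 ± 0.047 CPM (SD, n = 2 each), or -0.50 on the log2 scale (SE 0.0974, edgeR adjusted p = 0.00103). It was the 1 gene of the axoneme list that fell.

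Ttc14, a gene of the RNA processing list, had 4852 and 5039 counts against 4201 and 3234. This was 191 ± 7.21 against 144 ± 0.0963 CPM (SD, n = 2 each), which is -0.40 on the log2 scale (SE 0.0453, edgeR adjusted p = 3.27e-06). It was the most abundant of the genes that fell. Ttc14 shares 2499 bases with Ccdc39 on the opposite strand, in the GENCODE annotation of GRCm38. Ccdc39, which sets the spacing of structures along motile axonemes, had 1141 and 1129 counts against 5298 and 3934, a log2 fold change of 2.03 (edgeR adjusted p = 8.87e-15). The neighbours therefore moved in opposite directions. The library kit was strand-specific but the use of strand in counting was not given in the sources used here, so reads in the shared stretch could have been assigned to either gene; its part in the fall was not tested.

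The list of ubiquitin ligase and deubiquitinase adaptors had 1 of 5 tested genes called, Wdr20. That of chaperone, membrane lipid kinase and mitochondrial adaptors had 1 of 11, Ttc9c. These are shares of 20% and 9.09%, where 21.9% of all genes were called. Ttc9c had 123 and 115 CPM against 102 and 100.5 CPM, which is -0.23 on the log2 scale (SE 0.0499, edgeR adjusted p = 0.00274). Its relatives Ttc9 and Ttc9b were not called, with log2 fold changes of -0.05 and 0.03 (edgeR adjusted p = 0.601 and 0.88). Wdr20, which with Wdr48 activates the deubiquitinases USP12 and USP46, had 36.3 and 36.8 CPM against 31.8 and 30.7 CPM, or in log2 terms -0.22 (edgeR adjusted p = 0.0211). Wdr20 was not called by DESeq2 (adjusted p = 0.118) or without either Foxn3KO library (edgeR adjusted p = 0.0839 and 0.208). Wdr48 had 144 and 138 CPM against 136 and 138 CPM and was not called (edgeR adjusted p = 0.57).

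**Figure D3:**
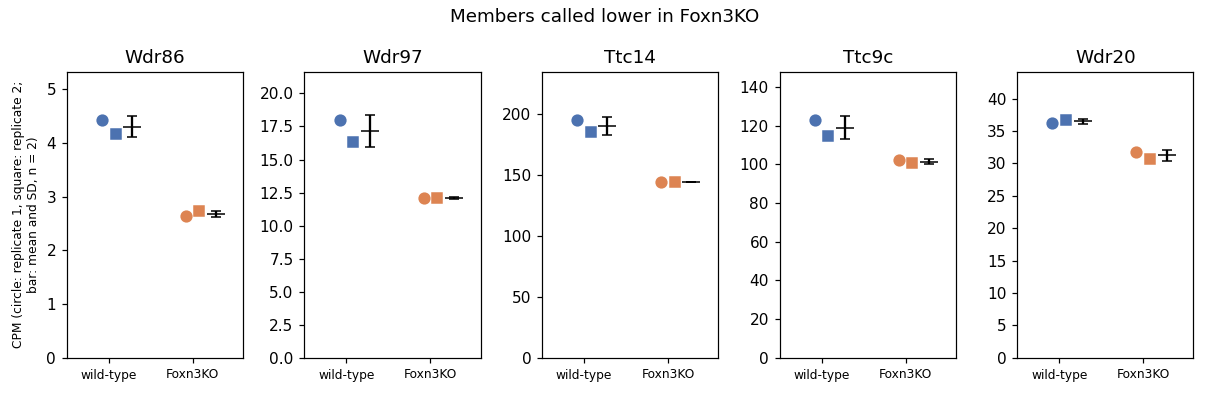
CPM of the 5 genes called lower, per library (circle, replicate 1; square, replicate 2), with the mean and SD of each group (n = 2); every axis starts at 0. In each gene both Foxn3KO libraries lie below both wild-type libraries, and the largest drop in fold is that of Wdr86, from 4.3 to 2.68 CPM.

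Among the genes in no list, 6 of 19 (31.6%) were called higher and 1 (5.26%), Wdr86, lower. Of all genes tested, 12.3% were called higher and 9.66% lower. Wdr27 had 50 and 72 counts under the wild-type label and 141 in each library labelled Foxn3KO, which is 1.23 on the log2 scale (SE 0.205, edgeR adjusted p = 0.000248). Ttc41 had 157 and 158 counts against 233 and 220, a log2 fold change of 0.55 (edgeR adjusted p = 0.00974) that was not called without Foxn3KO replicate 2 (0.156). The other 4 were Wdr17 (0.34), Wdr13 (0.22), Wdr1 (0.21) and Wdr83os (0.20). Wdr1 helps cofilin take actin filaments apart, and its call was lost without Foxn3KO replicate 1 (edgeR adjusted p = 0.0916). Wdr17 and Wdr83os were not called by DESeq2 (adjusted p = 0.147 and 0.164), and Wdr17 was also lost without Foxn3KO replicate 2 (edgeR adjusted p = 0.371) and without wild-type replicate 1 (0.0525). Wdr83os was also lost with total count scaling (edgeR adjusted p = 0.0593) and whichever library was left out, other than wild-type replicate 2. Ttc22 had 28 and 21 counts against 48 and 37 and was not called (log2 fold change 0.80, edgeR adjusted p = 0.0793), but passed without wild-type replicate 1 (0.0418).

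Wdr83os and Wdr83, which shares 567 bases with it on the opposite strand, had changes of opposite sign, of which 1 was called. Wdr83os had 33.7 and 35.6 CPM against 39.3 and 40.2 CPM (edgeR adjusted p = 0.0372). Wdr83 had 37.5 and 36.5 CPM against 33 and 32.9 CPM and was not called (log2 fold change -0.17, edgeR adjusted p = 0.076). In all, 29 of the 83 genes overlap another gene of the table in the GENCODE annotation of GRCm38, 24 of them on the opposite strand, and 8 of the called genes are among the 29. Of the overlapping neighbours of called genes, Tor2a (with Ttc16), Txnl1 (with Wdr7) and Rhot2 (with Wdr90, on the same strand) were not called, with log2 fold changes of 0.09, -0.01 and -0.05 (edgeR adjusted p = 0.374, 0.917 and 0.588).

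Because wild-type replicate 1 differed in sex pattern, the genes on X were examined apart. There were 3. Wdr13 had 154 and 155 CPM under the wild-type label and 182 and 179 CPM under the Foxn3KO label. This is 0.22 on the log2 scale (SE 0.0435, edgeR adjusted p = 0.00115). Without wild-type replicate 1 it was again 0.22, in a fit that takes no spread from the wild-type group. Wdr44 and Wdr45 were not called with that library (edgeR adjusted p = 0.481 and 0.551) or without it (0.92 and 0.593). The 2 wild-type libraries differed by a ratio of 1.01 for Wdr13.

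Levels were compared between genes by the FPKM values of the authors, which correct for gene length. Wdr6 was highest, with 65.7 and 75.1 FPKM under the wild-type label and 89.2 and 89.9 under the Foxn3KO label. Wdr82 followed with 45.1, 42.9, 44.5 and 44.3 FPKM in the same order of libraries. Ttc3, a ubiquitin ligase gene, had 42, 40.3, 40.6 and 40.1 FPKM, below Wdr82 in every library. Wdr83os (32.5, 34.5, 38 and 38.9 FPKM) and Ttc5 (31.1, 30.3, 34.5 and 33.7 FPKM) came next, each lower than the gene before in every library. Of these 5, Wdr6, Wdr83os and Ttc5 were called higher. Ttc3 had the most counts of all members, 14589 to 19242, and did not change detectably (log2 fold change -0.03, SE 0.0403, edgeR adjusted p = 0.641). At the other end, Ttc39a had 0.105 to 0.175 FPKM, and for Ttc39a, Wdr72 and Ttc34 (14 to 41 counts) the SE of the log2 fold change was 0.424, 0.321 and 0.376.

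Some genes stood much higher in this order under the Foxn3KO label. By mean FPKM under the wild-type label, Ttc21a ranked 75 of 83 and Ttc29 ranked 78; under the Foxn3KO label they ranked 34 and 48. Ttc21a went from 0.365 and 0.443 FPKM to 10.2 and 9.88 FPKM. Wdr90 went from rank 20 to rank 10. Ttc12 went from rank 66 to 54, while Ttc16, Wdr93 and Wdr95 were still at ranks 76, 79 and 75. Of the 11 genes with a mean under 5 CPM, 4 were called higher, among them Wdr93, and 1 lower. The median change of the 11 was 0.53 in log2 terms. Among all genes at that level 8.95% were called, 5.89% higher and 3.06% lower, and the median was -0.00182. Of the 41 genes at 5 to 50 CPM, 10 were called (24.4%), where 24.1% of all genes at that level were. Of the 31 genes at 50 CPM or more, 8 were called higher and 2 lower (32.3%), where 31.4% of all genes at that level were called. By direction, 25.8% were higher and 6.45% lower, against 17.2% and 14.2% of all genes at that level.

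**Figure D4:**
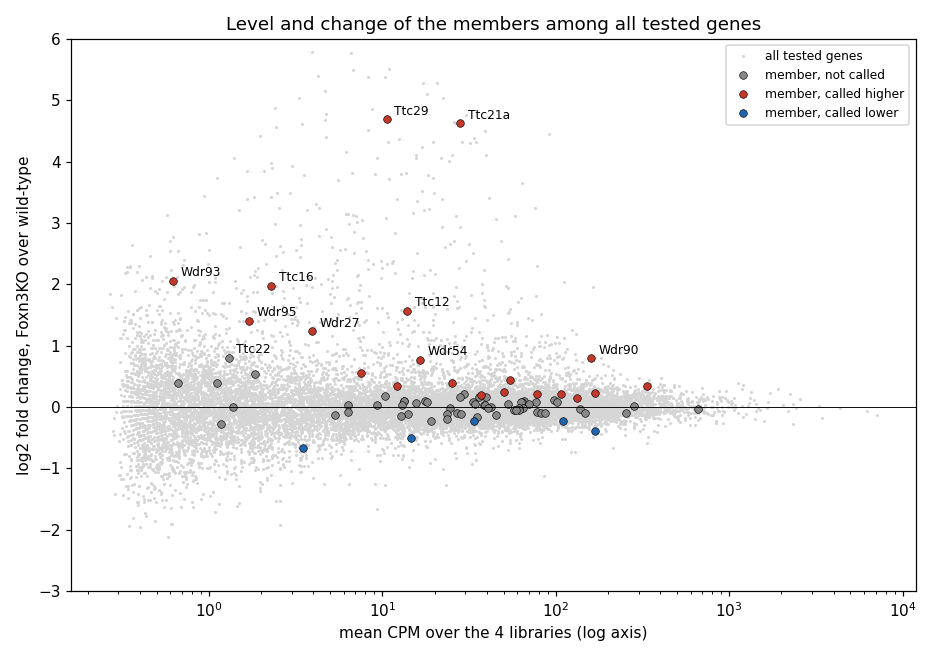
Mean CPM over the 4 libraries (log axis) against log2 fold change, with the 83 genes in colour over all tested genes in grey; 12 genes outside -3 to 6 are not drawn. The 7 genes of 2-fold or more lie below 50 CPM, and the 31 genes at 50 CPM or more lie between -0.40 and 0.79.

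Both name groups held called genes. Of 30 Ttc genes 6 were called higher and 2 lower (26.7%), with a median log2 fold change of 0.03; of 53 Wdr genes 14 were higher and 3 lower (32.1%), with a median of 0.07. Over all genes 21.9% were called, 12.3% higher and 9.66% lower. In DESeq2 (background 16.0%) 11 Wdr genes were called. Changes of 2-fold or more were found in 4 Ttc genes (Ttc29, Ttc21a, Ttc16 and Ttc12) and 3 Wdr genes (Wdr93, Wdr95 and Wdr27), each higher and called. This was 8.43% of the 83, where 4.51% of all genes were at 2-fold or more. Among these genes, Wdr93 passed the filter on low counts only through the Foxn3KO libraries. Outside the lists of the axoneme and of ciliary transport 16 of 69 were called (23.2%), where 21.9% of all genes were. Of the 69, 12 were called higher (17.4%) and 4 lower (5.80%), where 12.3% and 9.66% of all genes were. Groups did not overlap in CPM for 58 of the 83 genes (69.9%), against 60.4% of all genes. In 37 of them the Foxn3KO-labelled libraries were higher, at a background of 29.9%, and in 21 lower, at a background of 30.5%. Of these 58, 33 were not called, and over all genes 6657 of the 10449 without overlap were not called.

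Many proteins of both repeat classes have since been given names of the complex they belong to, and those listed here are not members. The list chosen for comparison held 26 genes of the table, among them the 4 set aside, which keep Ttc or Wdr names. Most of the 26 are genes of cilia. Of the 26, 20 were called higher by edgeR, and the median log2 fold change was 1.17. The other 6 were not called, and 1 of these, Skic3, had an unadjusted p under 0.05 (log2 fold change -0.17, edgeR adjusted p = 0.105). Cfap44, Dnai3, Cfap52 and Odad4 had the smallest p. Dnai3, formerly Wdr63, an intermediate chain of inner dynein arms, had 26 and 27 counts against 1027 and 787, a log2 fold change of 5.10 (edgeR adjusted p = 1.07e-15). Odad4, formerly Ttc25, which docks outer dynein arms, had 62 and 67 counts against 939 and 808, a log2 fold change of 3.78 (edgeR adjusted p = 2.28e-14). By edgeR 76.9% of these 26 genes were called, where 30.1% of the members and 21.9% of all genes tested were. The list was drawn up with earlier results on other genes of these data known, so its share is not independent evidence. As the 26 are mostly cilia genes, the contrast is not one of names alone. The lists share no gene, and their difference was not tested.

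In the authors' deposited table, 81 of the 83 genes had an adjusted p and 18 had one under 0.05, 15 higher and 3 lower in Foxn3KO, where 16.0% of all genes with an adjusted p had one under 0.05. These 18 were among the 25 called here. The authors also used DESeq2, and over all genes both their values and the DESeq2 fit here gave 2437 of 15248. The deposited 18 are therefore not separate evidence from the 18 of DESeq2 above. Over all settings tried, 15 of the 25 were called each time, 12 higher and 3 lower. The 12 were Ttc12, Ttc16, Ttc21a, Ttc29, Wdr6, Wdr13, Wdr27, Wdr31, Wdr54, Wdr73, Wdr90 and Wdr95, and the 3 were Ttc9c, Ttc14 and Wdr97.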

How the data were processed

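RNA was measured in 4 retina libraries, 2 of each genotype. Per the labels, the kit keeps strand and the adaptors carry molecular identifiers. The authors deposited read counts of each gene as whole numbers, FPKM values computed from them, a mean signal, shrunken log2 fold changes with their standard error (an unbounded score), and p-values. Per the submitters' processing notes, the build was mm39 and DESeq2 was used; the aligner, counter, annotation, use of strand and use of identifiers are not given in the sources used here. No per-sample column was left unmapped.

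From 18472 entries a repeated identifier was dropped. Genes were filtered with filterByExpr, scaled by TMM; edgeR 4.0.16 (R 4.3.3) gave the test (quasi-likelihood with legacy = FALSE, genotype as the only term, two-sided, Benjamini-Hochberg over 17300 genes). The fit was tested on simulated data. A floor of 3 counts is 0.103 to 0.134 CPM; it covers counting error only. Alternatives were RLE and total count scaling, no filter, at least 10 counts in every library, the earlier edgeR fit, DESeq2 1.42.0, limma-voom (limma 3.58.1), the replicate block and leaving out each library. Per the labels the samples are separate embryos.

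Named genes were the members of both cilia lists, the 8 called per direction with the largest change, at least 1 CPM and no overlap, and the 5 with the highest FPKM; other genes were named after their values were seen. Members and role lists were chosen with earlier results of these data known. Motifs were sought in RefSeq promoters of GRCm38.p6, any listed start counting; overlaps came from GENCODE M21. As the build differs from that of the counts, only relations between genes were used. Figures were drawn with matplotlib 3.10.9.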

Additional observations from a re-analysis of the deposited data

How the results depend on the processing

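The count of 25 called genes was 24 to 27 under the settings that kept all libraries, other than DESeq2 with 18. DESeq2 called 3 genes lower and 11 Wdr genes. Total count scaling called 8 genes lower, and moved the median log2 fold change from 0.0543 to 0.0338 for all members and from 0.0735 to 0.0531 for Wdr genes. It also turned the sign of Wdr82 (-0.00825), which was not called under any setting. With each library left out in turn, 18 to 30 genes were called, 15 to 22 higher and 3 to 9 lower; Ttc genes numbered 6 to 10 and Wdr genes 11 to 20. Their medians ranged from 0.0442 to 0.0742 for all members, 0.0361 to 0.0533 for Ttc genes and 0.0537 to 0.0836 for Wdr genes. In these fits 1 group has 1 library, assumed to vary like the other group. Among the genes named by the rule, signs changed in 5 that were not called, and other uncalled members near 0 changed sign too. Over the libraries left out, Wdr11 ranged from -0.0108 to 0.119, Ttc3 from -0.0606 to 0.00151, Wdr5b from -0.0912 to 0.243, Ttc17 from -0.014 to 0.0673 and Wdr82 from -0.0257 to 0.053. The lower end came without wild-type replicate 1 for Wdr11 and without wild-type replicate 2 for the others. No gene called here changed sign in any setting. The cause of these differences was not tested.

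The correlation over genes of the replicate differences, wild-type with Foxn3KO, was -0.00825. It compares 1 difference per group, and that of the wild-type group is also a difference of sex. It therefore cannot exclude that the replicate numbers pair the samples. Adding the replicate block to the fit gave 27 called genes, the 25 and in addition Wdr46 and Wdr59. Over the named genes, the settings that kept all libraries gave 192 results on the same side, 5 weaker and 1 reversed, and leaving out a library gave 86, 9 and 5. Depth limits genes near the floor, such as Wdr93 and Ttc39a.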
